A study of Mus musculus with 6 samples.

Results

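The replication-dependent histone genes were taken as every gene row whose symbol begins with Hist1h, Hist2h, Hist3h or Hist4h, which gave 67 of 25899 rows: 6 H1, 18 H2A, 18 H2B, 12 H3 and 13 H4 genes. Their transcription was read from captured nascent RNA in E14tg2a cells, a line of mouse embryonic stem cells on a 129SV background, in which a cRAF-ErT2 cassette is stably expressed. This fusion joins a RAF kinase to a receptor part that binds 4-hydroxytamoxifen (4OHT), so that 4OHT switches on ERK signalling. The 3 clones (a, b and c) gave 1 library each after 250 nM 4OHT for 2 h and 1 library each untreated, 6 in all. Every culture had been grown with serum, LIF and 2 µM CHIR99021, a GSK3 inhibitor. CHIR99021 was then left out, and an FGF receptor inhibitor, PD173074, was given at 250 nM in serum and LIF for 24 h ahead of the treatment. Ethynyl uridine at 5 mM was given for the 15 min before RNA isolation to mark new RNA. The labels name neither 4OHT-treated cells without the cassette nor a solvent control. With 1 library per clone and condition, a difference between clones in the response cannot be tested, and because nothing says that the clones were cultured apart, the p-values reflect only how these 6 libraries varied.

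Replication-dependent histone genes supply the histones that package newly copied DNA, and they are transcribed mainly in S phase, the stage of the cell cycle at which DNA is copied. H2A, H2B, H3 and H4 form the core of the nucleosome, and H1 binds the DNA that links nucleosomes. Their transcripts lack introns and a poly(A) tail and end in a conserved stem-loop that SLBP binds, while the coactivator NPAT drives their promoters in histone locus bodies. Embryonic stem cells spend much of their cycle in S phase. A few members (Hist1h1t, Hist1h2aa and Hist1h2ba) are better known as testis forms.

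The stem-loop was looked for after the stop codon of each member in the GENCODE M21 transcripts, and it was found in 46 of 67 members. The search used a fixed pattern of 6 stem bases (GGYYYT), a loop of 4 (TYTN) and 6 stem bases (ARRRCC). Y stands for C or T, R for A or G and N for any base. The stem-loop is shown because it is what sets these transcripts apart from other messenger RNA. The commonest form occurred in 26 members of the H1, H2A, H2B and H3 classes and in no H4 gene, and the form carried by 7 H4 genes differed in its stem. Capitals mark the paired stem and the loop is in lower case. In the annotated transcripts of the other 21 members no such match was found. Most of these transcripts end at or just after the stop codon, with 0 bases beyond it in Hist1h1b and Hist2h2bb. For those the search could not find a stem-loop, so its absence is not shown. Some others have longer ends, such as Hist1h2bq with 1608 bases, and there only this fixed pattern was found to be absent.
Hist2h3c1, shared with 25 other members: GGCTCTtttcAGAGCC
Hist1h3e, shared with 5 other members: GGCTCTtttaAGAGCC
Hist4h4, shared with 6 other H4 genes: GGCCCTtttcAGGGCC
Hist2h4, shared with Hist1h4i: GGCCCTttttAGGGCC

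The libraries held 7295334 to 9431819 counts after 4OHT and 9745747 to 12168380 counts untreated. Of these, the histone genes took 0.140%, 0.171% and 0.186% after 4OHT in clones a, b and c, against 0.147%, 0.179% and 0.234% untreated. All 10 stem cell markers had counts in every library, with summed levels of 2168 to 2586 counts scaled to library depth (CPM) after 4OHT and 3126 to 3279 CPM untreated. Of these markers 2 rose and 6 fell. Of 10 fibroblast or feeder markers, 6 had counts in every library and Lum had none, with summed levels of 22.1 to 26.9 CPM after 4OHT and 4.403 to 6.37 CPM untreated. Of the 4 tested, Twist1 and Col1a1 rose and Col5a2 and Pdgfrb fell, and Twist1 alone had 15.8 to 19.4 CPM after 4OHT and 0.152 to 0.784 CPM untreated. Their part in the results was not tested. Fos, an ERK target, averaged 132 ± 8.65 CPM after 4OHT and 4.20 ± 0.632 CPM untreated (SD, n = 3 each). Because each library pools many cells, fewer cells in S phase and less histone RNA per cell cannot be told apart.

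Histone gene copies are so alike that many reads fit several of them. Only 7 members had coding sequence in which every 50-base word was absent from all other members, 50 members had such words for less than 50% of their coding sequence, and 12 had none. How the counting dealt with reads that fit several copies is not given, and neither is whether it used strand. The annotated spans of 24 members also overlap another gene, among them Hist1h2aa and Hist2h3b. Of the 12 members without a coding word of their own, 7 were too low to test. Hist1h2ao and Hist1h2ap, identical in coding sequence to each other, had no count in any library, as did Hist1h2bq, a copy of Hist1h2br. Hist3h2a also had no count, although 87.8% of its coding words were its own. In each library a count of 0 allows up to 0.247 to 0.411 CPM by library size without TMM scaling, counting error only. For copies without a coding word of their own, 0 sets no such limit if shared reads were left out. A filter on low counts left 58 members (6 H1, 13 H2A, 15 H2B, 12 H3 and 12 H4 genes), so that every statement on tested members leaves out 9.

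Most histone genes did not pass the test 2 h after 4OHT, in libraries where most other genes did. In edgeR's quasi-likelihood test with Benjamini-Hochberg adjustment over all 13869 genes tested, 3 of 58 members (5.17%) had an adjusted p below 0.05, against 57.1% of all genes tested. Hist2h3c1 and Hist2h3c2, a pair of H3 genes, rose and Hist1h2aa fell. The background was 28.5% of genes higher and 28.6% lower. Groups did not overlap for 2 members higher and 2 lower, against 4353 genes higher and 4421 lower over the 13869 tested. Lack of overlap was thus common in these libraries. The members' median log2 fold change was 0.00072, against -0.00054 over all genes tested, and 29 members had a positive and 29 a negative value. Their median size, regardless of sign, was 0.18 for the members and 0.39 for all genes tested, with median standard errors (SE) of 0.20 and 0.12. For 51 of the 58, the 95% interval lay within a log2 fold change of 1 either way, so that a change by more than that is outside the interval for those 51. As a comparison of gene structure, 175 tested coding genes with a single exon outside the histone list had 48.0% called.

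Pairing the libraries by clone moved these counts. With clone as a replicate block in edgeR, 10 members rose and 4 fell, against 34.1% of all genes higher and 33.3% lower. The median SE of the members was 0.13 with the block. The 10 risers were 5 H3, 3 H4 and 2 H2B genes, and the 4 that fell were 2 H1 genes, 1 H2A gene and 1 H3 gene. The direction also depended on scaling (TMM in the values above): library size alone shifted the median of all genes by -0.20 and that of the members by -0.19. On that scale, 2 members rose and 6 fell without the block, against 17.4% of all genes higher and 41.0% lower, and 2 rose and 18 fell with it, against 21.2% of all genes higher and 47.4% lower. Thus 8 of the 10 rises under the block were not called by library size. Hist2h3c1 and Hist2h3c2 rose under both scalings, with and without the block.

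**Figure D1:**
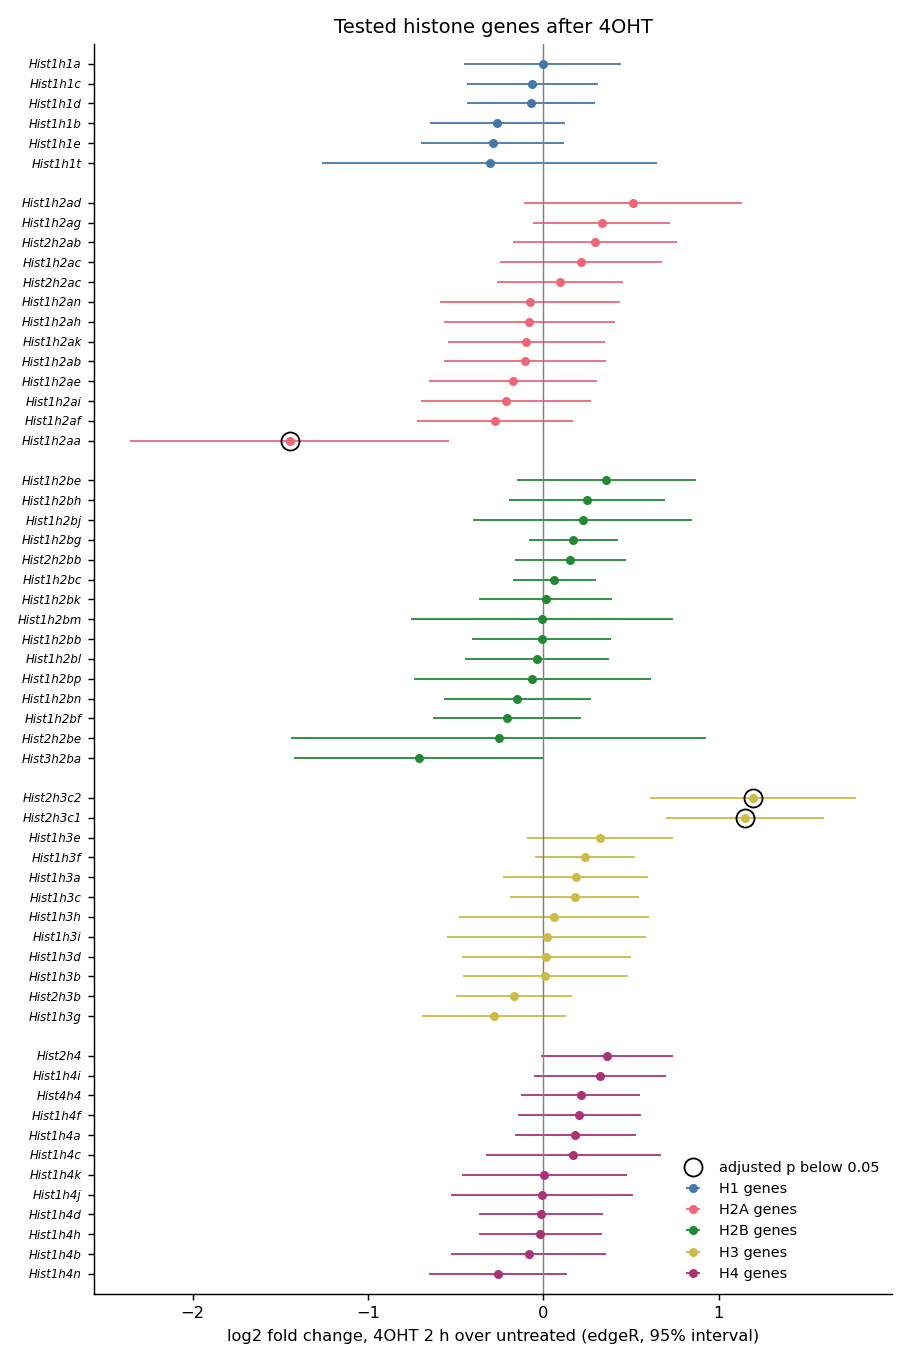
Log2 fold change (4OHT over untreated, x axis) of the 58 tested histone genes, one per line and grouped by class, with 95% intervals from edgeR; rings mark adjusted p below 0.05. The 3 ringed genes are Hist2h3c1 and Hist2h3c2 on the right and Hist1h2aa on the left, and the intervals of the other 55 cross 0.

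Of the H1 genes, which encode the linker histones, Hist1h1d, Hist1h1c, Hist1h1a and Hist1h1b had the highest mean CPM of all members. Divided by coding length, the untreated level was 313 CPM per kb for Hist1h1d, 271 for Hist1h1c, 263 for Hist1h1a, 236 for Hist1h1b and 86.5 for Hist1h1e. The testis form Hist1h1t stood at 1.49 CPM per kb. Hist1h1e and Hist1h1t lay below Hist2h2bb, an H2B gene at 236 CPM per kb. Values per kb here and below use coding length, whereas annotated spans differ, at 743 bases for Hist1h1b and 7425 for Hist1h1d. Neither the part of a gene that was counted nor the handling of shared reads is given, so ranks per kb depend on both. In the edgeR test none of the 6 H1 genes passed in either direction, none had an unadjusted p below 0.05, and DESeq2 and limma-voom without a block also called 0. All 6 fold changes were negative, with a median log2 value of -0.17, and the block called 2 of them lower.

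Those called with the block were Hist1h1b and Hist1h1e. Hist1h1b had 111, 134 and 150.2 CPM after 4OHT in clones a, b and c, against 119.5, 150.3 and 205 CPM untreated. Each clone was lower after 4OHT, yet the groups overlapped, with clone c highest and clone a lowest in both conditions. Its log2 fold change was -0.26 ± 0.17 (SE; adjusted p = 0.218), and -0.24 ± 0.06 with the block (adjusted p = 0.00100). Hist1h1e had 38.2, 47.6 and 53.8 CPM after 4OHT, against 41.8, 56.6 and 72.03 CPM untreated, again lower in each clone with overlapping groups. Its values were -0.29 ± 0.18 (SE; adjusted p = 0.199) and -0.27 ± 0.07 with the block (adjusted p = 0.00147). Its annotated span overlaps that of Hist1h2be, an H2B gene on the same strand, so that reads of the overlap may be shared.

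Hist1h1d had 162, 204 and 226 CPM after 4OHT, against 162, 199.8 and 261 CPM untreated. Hist1h1c had 134, 173 and 188 CPM after 4OHT, against 136, 162 and 219 CPM untreated. Hist1h1a had 131, 163 and 209 CPM after 4OHT, against 129, 153 and 222 CPM untreated. All 3 were lowest in clone a and highest in clone c in both conditions, and their treatment groups overlapped. Log2 fold changes were -0.07 ± 0.16, -0.06 ± 0.17 and -0.00 ± 0.20 (SE) for Hist1h1d, Hist1h1c and Hist1h1a, and the block called none of the 3.

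H2A genes had low counts, and 5 of the 18 fell below the filter. Among those 5, Hist1h2ao, Hist1h2ap, Hist2h2aa1 and Hist2h2aa2 had no coding word of their own. Their low counts, and those of the class, may thus depend on how shared reads were assigned. In edgeR, 1 of 13 tested members fell, none rose (also in DESeq2 and limma-voom), no other had an unadjusted p below 0.05, and the median log2 fold change was -0.08. The member that fell, Hist1h2aa, a testis form at bases 23934462 to 23934851 of chromosome 13 (GRCm38, plus strand), had few reads. It had 2, 5 and 3 counts after 4OHT in clones a, b and c, against 14, 15 and 13 counts untreated. The groups did not overlap, at 0.228 to 0.619 CPM after 4OHT and 1.12 to 1.27 CPM untreated. Its log2 fold change was -1.45 ± 0.41 (SE; adjusted p = 0.0118). The call was lost in DESeq2 (adjusted p = 0.0856, or 0.136 with the block), without the 4OHT library of clone a (0.0654) and without clone a (0.101). Hist1h2ba, its neighbour across a shared start region of 306 bases, had 4, 4 and 2 counts after 4OHT and 2, 2 and 5 counts untreated, and was too low to test.

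Hist1h2ak, the highest of the H2A genes at 69.8 CPM per kb of coding sequence untreated, had 21.02, 26.1 and 29.1 CPM after 4OHT, against 21.9, 22.8 and 37.0 CPM untreated. Hist1h2ae had 11.3, 10.1 and 12.4 CPM after 4OHT, against 8.98, 12.3 and 17.2 CPM untreated. Hist1h2af had 9.14, 9.90 and 12.3 CPM after 4OHT, against 9.14, 13.3 and 15.4 CPM untreated. In all 3 the untreated library of clone c was highest and the groups overlapped. Hist1h2ag, with the second smallest adjusted p of the class (0.129), had 7.42, 8.29 and 6.72 CPM after 4OHT, against 5.21, 5.62 and 7.15 CPM untreated. It was higher after 4OHT in clones a and b and lower in clone c, with a log2 fold change of 0.33 ± 0.18 (SE). No coding word of Hist1h2ag was its own, so its count depends on how shared reads were assigned.

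H2B genes were led by Hist2h2bb, whose coding sequence has no word in common with another member. At 236 CPM per kb of coding sequence untreated it stood above Hist1h2bg, the next in the class at 54.6 CPM per kb. The span of Hist2h2bb also overlaps Gm20628 and Gm42743, which were not analysed here, so reads of the overlap may be shared. Hist2h2bb had 89.9, 104 and 102 CPM after 4OHT, against 72.4, 81.8 and 113 CPM untreated. It was higher in clones a and b and lower in clone c, with a log2 fold change of 0.15 ± 0.14 (SE; adjusted p = 0.382), and 0.17 ± 0.07 with the block (adjusted p = 0.0419). None of the 15 tested H2B genes passed in edgeR without the block, none had an unadjusted p below 0.05, DESeq2 and limma-voom called 0, and the block called 2 higher.

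Hist1h2be, the other H2B gene called with the block, had 11.3, 14.4 and 16.5 CPM after 4OHT, against 8.26, 9.49 and 15.3 CPM untreated. It was higher in all 3 clones, with log2 fold changes of 0.36 ± 0.23 (SE; adjusted p = 0.203) and 0.38 ± 0.13 with the block (adjusted p = 0.0135). Its span overlaps Hist1h1e, which was lower in each clone. Hist1h2bg had 21.6, 23.5 and 24.6 CPM after 4OHT, against 18.5, 20.1 and 23.3 CPM untreated. Hist1h2bb had 16.1, 20.7 and 20.0 CPM after 4OHT, against 14.7, 18.3 and 24.3 CPM untreated. Both groups overlapped in each of these genes, and neither was called with the block. Hist3h2ba, on chromosome 11 apart from the main clusters, had 1.26, 0.990 and 0.877 CPM after 4OHT, against 1.28, 1.97 and 1.96 CPM untreated. Its groups did not overlap, with a log2 ratio of -0.03 in clone a, -0.87 in clone b and -1.003 in clone c, and its fitted log2 fold change was -0.71 ± 0.32 (SE; adjusted p = 0.0817).

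H3 genes held both members that rose. Hist2h3c1 and Hist2h3c2 encode the H3.2 form and lie in the smaller histone cluster on chromosome 3, at bases 96246685 to 96248509 (plus strand) and 96238108 to 96239127 (minus strand) of GRCm38. Hist2h3c1 had 13.9, 15.5 and 18.7 CPM after 4OHT, against 5.93, 6.07 and 9.80 CPM untreated, a log2 fold change of 1.15 ± 0.20 (SE; adjusted p = 0.000777). Hist2h3c2 had 6.17, 8.17 and 9.21 CPM after 4OHT, against 2.65, 2.73 and 5.00 CPM untreated, a log2 fold change of 1.198 ± 0.264 (SE; adjusted p = 0.00307). Every 4OHT library lay above every untreated library in both genes. In both, clone c had the highest level in each condition and the smallest fold change. Without clone b, Hist2h3c2 missed the threshold (adjusted p = 0.0596).

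The coding sequences of Hist2h3c1 and Hist2h3c2 were identical over all 411 bases, so the pair cannot be told apart by coding reads. Their annotated transcripts reach further, and 65.3% of the 50-base words of Hist2h3c1 transcripts and 36.5% of those of Hist2h3c2 occurred in no other member. The counts of both rows together came to 176, 191 and 191 after 4OHT, against 107, 116 and 151 untreated. In CPM this was 20.1, 23.6 and 27.9 after 4OHT, against 8.58, 8.81 and 14.8 untreated, which is 2.34-, 2.68- and 1.89-fold higher in clones a, b and c. The span of Hist2h3c1 also overlaps Gm20634, which was not analysed here. Hist2h3b, another H3 gene of the cluster, matched them at 410 of 411 coding bases. It had 8.22, 10.6 and 9.50 CPM after 4OHT, against 10.02, 9.94 and 11.96 CPM untreated, overlapping groups with a log2 fold change of -0.17 ± 0.15 (SE; adjusted p = 0.358).

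The promoters of these H3 genes are shown to set their sequences side by side, and their part in the fold changes was not tested. Windows of 300 bases (250 before to 50 after the RefSeq start, GRCm38.p6) matched at 284 of 285 aligned bases between Hist2h3c1 and Hist2h3c2, but at 90 of 296 between Hist2h3c1 and Hist2h3b. They lie at chr3:96246435-96246734 on the plus strand for Hist2h3c1, chr3:96239078-96239377 on the minus strand for Hist2h3c2 and chr3:96268404-96268703 on the plus strand for Hist2h3b. Capitals mark CCAAT, the letters of the CCAAT box, on either strand. Hist2h3c1 and Hist2h3c2 had 1 match each, past the annotated start, and Hist2h3b had 2 before its start. The windows follow the annotated starts, and that of Hist2h3b alone ends inside coding sequence. Its match to the other windows may therefore compare unlike regions.
Hist2h3c1: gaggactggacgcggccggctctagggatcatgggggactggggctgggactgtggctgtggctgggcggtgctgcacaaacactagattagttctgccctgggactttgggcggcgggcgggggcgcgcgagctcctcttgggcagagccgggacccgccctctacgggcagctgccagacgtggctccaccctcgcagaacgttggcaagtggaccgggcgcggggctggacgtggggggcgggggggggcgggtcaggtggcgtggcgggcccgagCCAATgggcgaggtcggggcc
Hist2h3c2: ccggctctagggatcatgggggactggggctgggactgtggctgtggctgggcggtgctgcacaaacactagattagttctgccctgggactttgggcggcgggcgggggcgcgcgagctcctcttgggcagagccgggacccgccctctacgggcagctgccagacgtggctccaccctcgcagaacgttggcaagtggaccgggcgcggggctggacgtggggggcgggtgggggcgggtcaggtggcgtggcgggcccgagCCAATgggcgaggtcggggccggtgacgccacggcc
Hist2h3b: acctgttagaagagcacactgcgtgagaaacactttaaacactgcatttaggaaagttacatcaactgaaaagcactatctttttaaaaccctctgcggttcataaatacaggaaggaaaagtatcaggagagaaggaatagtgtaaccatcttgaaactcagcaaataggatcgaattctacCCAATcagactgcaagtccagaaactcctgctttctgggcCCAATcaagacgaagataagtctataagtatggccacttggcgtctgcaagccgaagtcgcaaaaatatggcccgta

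**Figure D2:**
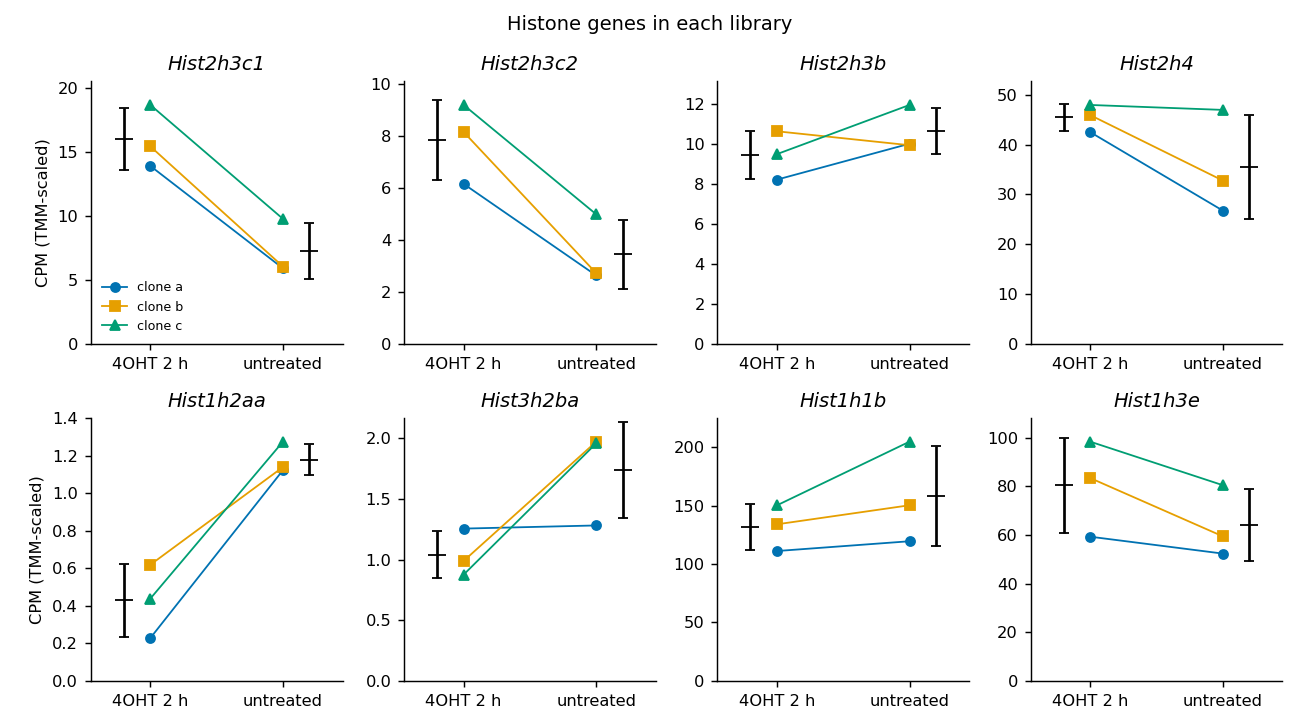
Normalised level (CPM, y axis, from 0) of 8 histone genes in the 4OHT and untreated library of each clone, joined by a line per clone, with the mean and SD of each group in black (n = 3). Hist2h3c1 and Hist2h3c2 were higher after 4OHT in every clone without overlap, Hist1h2aa and Hist3h2ba lower without overlap, and the other 4 overlapped. Over all 13869 genes tested, 4353 were higher and 4421 lower without overlap.

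Neighbours of the chromosome 3 cluster had values of both signs. Within 100 kb, Otud7b and Sf3b4, a deubiquitinase and a splicing factor gene, rose by log2 fold changes of 0.26 ± 0.06 and 0.45 ± 0.11 (SE; adjusted p = 0.00601 and 0.00577). Bola1, a gene for a BolA family protein, had -0.34 ± 0.17 (adjusted p = 0.105). Within the cluster, Hist2h2ab, Hist2h2ac and Hist2h2be had 0.29 ± 0.21, 0.10 ± 0.16 and -0.25 ± 0.53. Hist2h2aa1 and Hist2h2aa2, identical copies between the H3 pair, had 0 or 1 counts per library except for 2 counts of Hist2h2aa2 in untreated clone c.

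Of the other H3 genes, Hist1h3e was the highest, at 157 CPM per kb of coding sequence untreated. It had 59.3, 83.4 and 98.4 CPM after 4OHT, against 52.3, 59.4 and 80.5 CPM untreated. It was higher in all 3 clones but the groups overlapped, and the log2 fold change was 0.33 ± 0.19 (SE; adjusted p = 0.162), against 0.32 ± 0.06 with the block (adjusted p = 0.000144). Hist1h3c had 41.6, 45.2 and 51.3 CPM after 4OHT, against 32.4, 36.6 and 53.2 CPM untreated. Hist1h3f had 34.5, 42.6 and 37.1 CPM after 4OHT, against 26.9, 32.5 and 37.5 CPM untreated. Both were higher in clones a and b and about level in clone c, and the block called both higher (adjusted p = 0.0325 and 0.0140). Hist1h3g had 24.8, 29.9 and 31.1 CPM after 4OHT, against 26.5, 31.9 and 46.3 CPM untreated, with log2 values of -0.28 ± 0.19 (SE; adjusted p = 0.217) and -0.26 ± 0.09 with the block (adjusted p = 0.0209). Hist1h3g was lower in each clone with overlapping groups, and most of the difference came from clone c.

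H4 genes differed widely in level. Divided by coding length, Hist1h4d stood at 217 CPM per kb untreated and Hist4h4, alone on chromosome 6, at 174 CPM per kb, while Hist1h4j stood at 29.4 CPM per kb. None of the 12 tested H4 genes passed in edgeR without the block, none had an unadjusted p below 0.05, and DESeq2 and limma-voom called 0. The median log2 fold change was 0.09, and the block called 3 higher.

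Hist2h4 had 42.5, 45.9 and 47.9 CPM after 4OHT, against 26.8, 32.8 and 46.9 CPM untreated. It was higher in each clone, by log2 values of 0.66 in clone a, 0.48 in clone b and 0.03 in clone c, and the groups overlapped. The fit gave 0.36 ± 0.17 (SE; adjusted p = 0.0925), and 0.39 ± 0.09 with the block (adjusted p = 0.00120). Hist1h4i had 28.8, 35.0 and 35.1 CPM after 4OHT, against 20.7, 24.5 and 34.2 CPM untreated. Hist4h4 had 53.7, 68.2 and 64.3 CPM after 4OHT, against 41.8, 52.8 and 66.3 CPM untreated. Both were higher in clones a and b, near level in clone c, and called with the block (adjusted p = 0.00376 and 0.0105). Hist1h4d had 58.1, 69.8 and 71.2 CPM after 4OHT, against 52.3, 62.9 and 86.0 CPM untreated, and was not called in either fit.

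Across classes, summed levels differed little with treatment beside the spread between clones. H1 genes summed to 576, 722 and 828 CPM after 4OHT, against 589, 723 and 979.5 CPM untreated. H3 genes summed to 256, 329 and 343 CPM after 4OHT, against 215, 253 and 349 CPM untreated. H4 genes summed to 347, 403 and 402 CPM after 4OHT, against 272, 334 and 450.0 CPM untreated. In each class the groups overlapped, and untreated clone c was the highest library. The mean log2 ratio over clones was -0.09 ± 0.13 for H1, -0.03 ± 0.24 for H2A, 0.11 ± 0.19 for H2B, 0.20 ± 0.21 for H3 and 0.15 ± 0.28 for H4 (SD, n = 3 clones). With library size in place of TMM these were -0.29, -0.23, -0.09, 0.0027 and -0.04, so that the signs of H2B and H4 turned.

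The make-up of the histone counts does not depend on scaling between libraries. The size of each share does depend on how reads shared between copies were assigned, which is not given. H1 genes took 38.2%, 39.4% and 41.9% of all histone counts after 4OHT, against 43.2%, 43.8% and 43.9% untreated. H3 genes took 16.9%, 18.0% and 17.3% after 4OHT, against 15.8%, 15.3% and 15.6% untreated. H4 genes took 23.0%, 22.0% and 20.3% after 4OHT, against 20.0%, 20.2% and 20.1% untreated. The H1 share was thus lower and the H3 share higher in every clone without overlap between groups. The H4 share was higher in clones a and b but nearly level in clone c, at 20.32% after 4OHT and 20.14% untreated. Its groups were separate only by 20.32% against 20.22% in untreated clone b, and the counting error of these shares was not estimated. Clone c was closest to its untreated library for H1 and H4. The mean difference was -3.82 ± 1.63 points for H1, 1.83 ± 0.749 points for H3 and 1.66 ± 1.43 points for H4 (SD, n = 3 clones). The H2B share was higher in each clone by 0.674 ± 0.0300 points with overlapping groups, and the H2A share moved in different directions. Without Hist2h3c1 and Hist2h3c2 the H1 and H3 differences were -3.55 and 1.22 points, and without Hist1h1d the H4 shares overlapped between groups. The class shares of a library add up to a fixed whole, so a lower H1 share means higher shares elsewhere, and the differences are not independent. These shares are descriptions without a test.

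**Figure D3:**
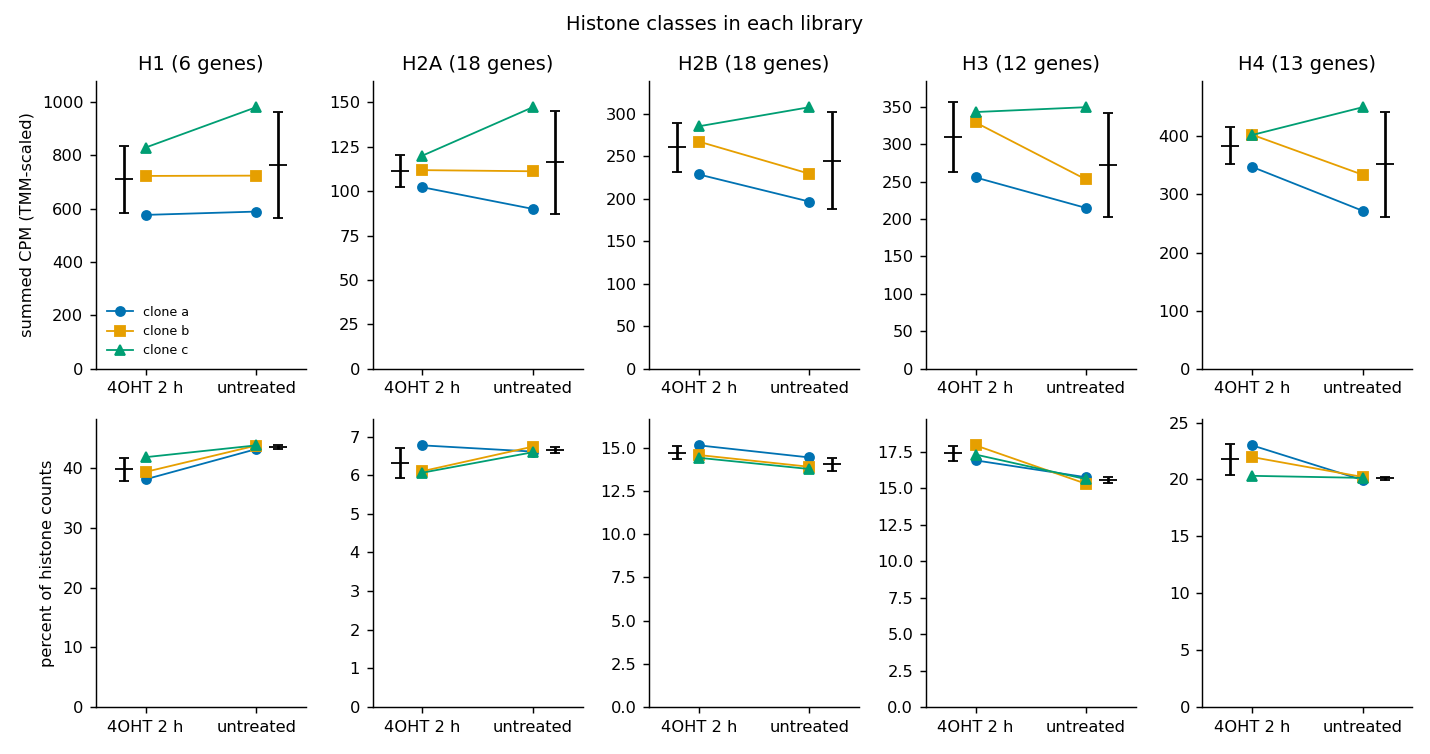
Summed level (CPM, upper row) and percent of all histone counts (lower row) of each histone class, y axes from 0, in the 4OHT and untreated library of each clone, with group mean and SD in black (n = 3). Summed levels overlap between conditions in all 5 classes, while the H1 share is lower and the H3 share higher after 4OHT in every clone. The H4 share is higher in clones a and b and nearly level in clone c (20.32% after 4OHT, 20.14% untreated).

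The 3 clones differed in the level of many histone genes. When clone terms were added to the treatment in edgeR and tested together, 32 of 58 members (55.2%) had an adjusted p below 0.05, against 12.6% of all genes tested. In that same fit 14 members were called for treatment. In all 32, clone c was above clone a. The log2 difference, c over a, had a median of 0.55 over the members and -0.01 over all genes tested, and 56 of 58 members were higher in c than in a. For 51 members the fitted order was c above b above a. By class, 5 of 6 H1, 2 of 13 H2A, 10 of 15 H2B, 7 of 12 H3 and 8 of 12 H4 genes were called. The H2A genes had a median difference of 0.46, against 0.51 to 0.61 in the other classes, on lower counts.

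Hist1h1a had a log2 difference of 0.74 ± 0.06 (SE, c over a; adjusted p of the clone terms 6.60e-07). Its level in clone c was 209 CPM after 4OHT and 222 CPM untreated, while clone a had 131 and 129 CPM. Hist1h2bm had 1.09, the highest difference among the called members, and Hist2h2be had 1.68 ± 0.50 on 70 counts in all (adjusted p = 0.0604). Below clone a were only Hist1h1t and Hist2h2ab, both not called, at -0.16 each. Untreated clone c was the highest of the 6 libraries for 37 of 58 members, and untreated clone a the lowest for 40.

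Clone c also stood apart outside the histone genes. The 13 rows with the highest counts took 17.7%, 18.0% and 19.5% of counts after 4OHT, against 16.3%, 15.5% and 20.0% untreated, highest in clone c in both conditions. Scaled to these 13 rows, 8 of 58 members were called for clone, against 16.3% of all genes, and the median difference was 0.29, against -0.25 over all genes tested. For treatment that scaling called 11 members lower, against 40.0% of all genes, and 21 with the block, against 48.2%, so that more members were then called for treatment than for clone. Their part in the clone difference was not tested. With TMM scaling, 12 of 34 tested S phase and DNA replication genes (35.3%) were called for clone, against 12.6% of all genes tested. Their median difference, c over a, was 0.11, against -0.01 over all genes tested. Within single clones the direction also differed: 42 of 58 members were higher after 4OHT in clone a, 40 in clone b and 13 in clone c. The members' median log2 ratio was 0.17 in clone a, 0.15 in clone b and -0.18 in clone c, against 0.01, 0.00 and -0.02 over all genes tested. This difference between clones has 1 library behind each value and was not tested.

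**Figure D4:**
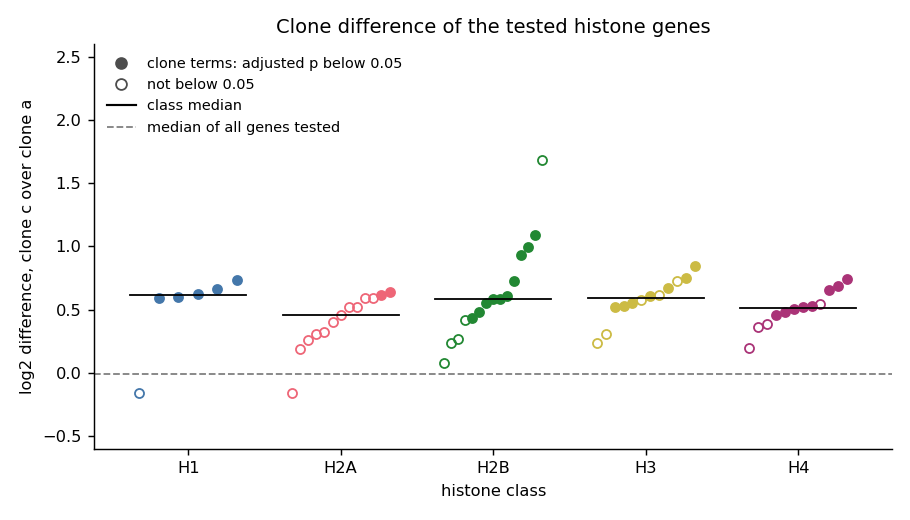
Log2 difference between clone c and clone a (y axis) of the 58 tested histone genes by class, each point a gene, filled where the test of the clone terms gave an adjusted p below 0.05. Class medians (lines) lie at 0.46 to 0.61, above the median of all genes tested (dashed, -0.01), and 56 of 58 points are above 0.

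Promoter sequences were matched for 62 of 67 members in RefSeq (GRCm38.p6). Letters were searched on both strands in windows of 300 bases and set against 32851 promoters of that length. CCAAT occurred in 85.5% of the members, against 37.4% of all promoters, in every H1, H2A, H2B and H3 promoter searched but in 3 of 12 H4 promoters. TATAAA, the TATA box, occurred in 56.5% of the members, against 13.6% of all promoters. ATTTGCAT, the octamer that POU factors such as OCT1 bind, occurred in 7 H2A and 6 H2B promoters and in no other class, against 1.74% of all promoters. AAACACA, part of the H1 promoter box, occurred in 5 of 6 H1 promoters, against 7.18% of all promoters. TGACTCA, the AP-1 letters, occurred in no member, against 5.20% of all promoters. CCGGAAG, an ETS factor's letters, occurred in 1 member (1.61%), against 8.86% of all promoters, and TGACGTCA, the cyclic AMP response element, in 4 (6.45%), against 1.79%. Windows of head-to-head partners overlap, so the same stretch can count for both members. Hist1h2ag and Hist1h2bj, whose windows overlap, both count for TGACGTCA. So do Hist1h2ae and Hist1h2bg, Hist1h2ah and Hist1h2bk, and Hist1h2aa and Hist1h2ba for the octamer. The shares of members are therefore not shares of separate stretches. Such matches describe the letters in these windows and are not sites of binding.

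Many H2A and H2B genes lie head to head, and 12 such pairs had starts 176 to 306 bases apart. Both partners were tested in 9 pairs, of which 5 had fold changes of the same sign and 4 of opposite sign, none of them called. Hist1h2ag and Hist1h2bj, a pair with both values positive, had log2 fold changes of 0.33 and 0.22. Hist1h2bf and Hist1h2ad had -0.21 and 0.51.

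The genes that serve histone production were followed as lists of their own. Of 23 genes for histone transcription and 3' end processing, 11 rose and 2 fell (14 and 2 with the block), where 28.5% of all genes were higher and 28.6% lower, and the median log2 fold change was 0.21. Slbp, the stem-loop binding protein, had 207, 228 and 252 CPM after 4OHT, against 116, 118 and 144 CPM untreated, a log2 fold change of 0.86 ± 0.10 (SE; adjusted p = 4.66e-05). Srrt, which links the RNA cap to 3' end processing, and Pou2f1, which encodes OCT1, rose by 1.01 ± 0.07 and 0.69 ± 0.08 (adjusted p = 1.96e-06 and 4.91e-05). Npat had 105, 99.4 and 97.3 CPM after 4OHT, against 81.0, 83.6 and 81.8 CPM untreated, and rose by 0.29 ± 0.06 (adjusted p = 0.00245), but had -0.01 when scaled to the 13 highest-count rows. The 2 that fell, named after their values were seen, were Lsm11 and Casp8ap2, at -0.65 ± 0.10 and -0.23 ± 0.07. Every library after 4OHT stood above every untreated library for Slbp and Npat. By library size alone 8 genes of the list were higher and 5 lower, against 17.4% of all genes higher and 41.0% lower. Scaled to the 13 rows, which shifted the median of all genes by -0.31, 2 were higher and 3 lower, against 9.94% of all genes higher and 40.0% lower.

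Histone variants, grouped here as replication-independent, can replace canonical histones, also outside S phase. Whether each listed gene is transcribed independently of S phase was not tested. Of 11 tested, 6 rose and 3 fell (8 and 3 with the block), where 28.5% of all genes were higher and 28.6% lower, and their median log2 fold change was 0.25. H3f3b, which encodes H3.3, had 329, 363 and 353 CPM after 4OHT, against 156, 172 and 178 CPM untreated, a log2 fold change of 1.05 ± 0.07 (SE; adjusted p = 1.43e-06). H3f3a, which encodes the same protein, rose by 0.22 ± 0.07 (adjusted p = 0.0159), but this held in 12 of 21 alternatives: the call was lost by library size (0.02, adjusted p = 0.80, and 0.646 with the block), under upper quartile scaling, and without clone a, without clone b, without untreated clone a or without 4OHT clone b. Scaled to the 13 rows it had -0.09. H2afx, the H2A form phosphorylated at DNA breaks, rose by 0.52 ± 0.11 (adjusted p = 0.00282), and Cenpa, the centromeric H3, by 0.59 ± 0.06. H2afy2, a macroH2A gene, fell by 0.91 on the log2 scale, with an SE of 0.10. The groups of H3f3b did not overlap. Of the 11 variants, 3 were higher and 3 lower by library size (17.4% and 41.0% of all genes), and 1 was higher and 3 lower when scaled to the 13 rows (9.94% and 40.0%).

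Histone chaperones, which carry histones to and from DNA, had 10 of 19 tested genes that rose and 3 that fell (12 and 5 with the block), where 28.5% of all genes were higher and 28.6% lower, and their median log2 fold change was 0.31. Atrx and Rbbp7 rose by 1.21 ± 0.12 and 1.12 ± 0.06 (SE; adjusted p = 2.09e-05 and 3.41e-07), and Anp32e by 0.70 ± 0.08. Of the 19 chaperones, 8 were higher and 6 lower by library size (17.4% and 41.0% of all genes), and 2 higher and 6 lower when scaled to the 13 rows (9.94% and 40.0%). Of 34 tested S phase and DNA replication genes, 18 rose and 2 fell (23 and 2 with the block), where 28.5% of all genes were higher and 28.6% lower, and their median was 0.20. Pcna, the sliding clamp of DNA polymerase, had 192, 207 and 216 CPM after 4OHT, against 114, 121 and 137 CPM untreated, a log2 fold change of 0.73 ± 0.08 (SE; adjusted p = 3.81e-05). E2f3 and Mcm10, a cell cycle transcription factor gene and a replication gene, rose by 0.61 ± 0.06 and 0.49 ± 0.06. Pcna was higher in each 4OHT library than in any untreated one. With library size alone the S phase list had 7 higher and 5 lower (17.4% and 41.0% of all genes), and scaled to the 13 highest-count rows 1 higher and 3 lower (9.94% and 40.0%), so its direction depended on scaling.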

How the data were processed

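EU-seq, the capture and sequencing of newly made RNA labelled with ethynyl uridine, gave 6 libraries (3 clones, each with and without 4OHT), prepared with the NEB Next Ultra 2 kit per the labels' protocols. The deposited values are whole-number read counts per gene symbol, which the authors did not normalise. STAR, featureCounts and mm10 are named in the submitters' processing notes. Their versions and settings, the annotation, the use of strand and the handling of reads that fit several genes are not stated (not given in the sources used here).

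Testing used edgeR (4.0.16, under R 4.3.3): filterByExpr (minimum count 10, minimum total 15), TMM scaling, glmQLFit and glmQLFTest without a clone term, and Benjamini-Hochberg adjustment over the 13869 genes tested, with calls at an adjusted p below 0.05. Every adjusted p in the text is from edgeR unless another tool is named. CPM are TMM-scaled except for floors, which stand for 3 counts over library size alone, and such limits cover counting error only. The same clone letters in both groups of the labels pair the libraries, and the correlation of deviations within a letter was 0.282 for a, 0.165 for b and 0.357 for c, against -0.283 to 0.068 across letters. Block values stand beside named genes and lists whose calls they alter. No library of a group was a copy of another (chi-square of 2.24 to 11.4 per gene). The fits were tested on simulated data. Alternatives were other scalings and filters, DESeq2 1.42.0, limma-voom (limma 3.58.1), the block, stricter thresholds, and each library or clone left out.

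Positions, coding lengths, transcripts and overlaps come from GENCODE M21, and promoters from RefSeq (GRCm38.p6). The members and lists were chosen with earlier results of these data known. Values in every library are given for the 3 members of each class with the highest mean CPM and the 2 with the smallest adjusted p, and other members are named where a count or comparison calls for it. From each related list the 3 genes with the smallest adjusted p are named, with Npat, Slbp, H3f3a, H3f3b, H2afx and Pcna.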

Additional observations from a re-analysis of the deposited data

How the results depend on the processing

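Hist2h3c1 was higher and past the threshold under every alternative run, and Hist2h3c2 under every one except without clone b. The count of members higher after 4OHT, 2 as reported, was 10 with clone as a replicate block in edgeR (34.1% of all genes) and 5 with the block in DESeq2 (23.7%), 1 without clone b (19.4%) and 14 without clone c (29.6%), and between 2 and 13 with single libraries left out, 13 being without untreated clone c (27.6%). The count of members lower, 1 as reported, was 6 by library size (41.0% of all genes) and 11 scaled to the 13 highest-count rows (40.0%). It was 0 in DESeq2 (21.1%), without clone a (21.7%) and at an adjusted p below 0.01 (21.4%). With the replicate block it was 4 in edgeR (33.3%) and 2 in DESeq2 (3288 of 15640 genes), 18 with library size (47.4%) and 21 with the 13 rows (48.2%). With single libraries left out it was 0 (without 4OHT clone a, 24.9%) to 6 (without untreated clone a, 25.4%). The count of members with a clone difference, 32 as reported, was 8 scaled to the 13 rows (16.3% of all genes), 9 in DESeq2 (6.39%), 19 at an adjusted p below 0.01 (6.81%), and 20 (without untreated clone a, 10.7%) to 43 (without 4OHT clone c, 17.9%) with single libraries left out. By library size the mean log2 ratio of summed levels was -0.290 for H1 and -0.0893 for H2B. Scaled to the 13 rows, the Npat log2 fold change was -0.0147 and the H3f3a log2 fold change -0.0871, or -0.0080 and -0.0799 with the replicate block. The cause of these shifts was not tested. The block fits with another scaling, single libraries left out of the clone test and the alternatives for class shares were chosen after seeing the data. Without the block the median SE of a member's log2 fold change was 0.20, against 0.13 with it, which limits the size of change that either fit could call.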
